A study of Mus musculus with 9 samples.

Results

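The genes described here are 10 transcripts of the muscle side of the nerve-muscle synapse and of the response to loss of the nerve, measured by RNA sequencing in mouse tibialis anterior muscle. They were taken by symbol from the deposited tables, and all 10 were present among the 14300 protein-coding genes that both tables list. Chrna1, Chrnb1, Chrnd, Chrne and Chrng encode the alpha, beta, delta, epsilon and gamma subunits of the muscle nicotinic acetylcholine receptor. Myog and Myod1 encode myogenin and MyoD, muscle transcription factors of the basic helix-loop-helix class. Runx1 encodes a transcription factor, Gadd45a a stress-induced regulator, and Ncam1 the neural cell adhesion molecule.

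The receptor of an adult fibre is built from alpha, beta, delta and epsilon subunits and is concentrated under the nerve ending, where a small number of nuclei transcribe its genes. Fetal fibres use the gamma subunit in place of epsilon, and denervated fibres make gamma again. Electrical activity normally holds the receptor genes down outside the synapse, and when the nerve is lost myogenin, RUNX1, GADD45A and NCAM1 are known to increase along the whole fibre together with the alpha, delta and gamma subunits.

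Muscle was taken 4 weeks after treatment from C57BL/6J mice, all male, and 9 libraries were made, 3 for each of 3 groups. Control mice are labelled only as control and are called sham in the tables. ORX mice had their testes removed, and ORX+DHT mice were also orchiectomised and were given dihydrotestosterone, a potent androgen. Age, dose and route of the androgen are not given in the sources used here, and neither is whether a library pools animals. The labels call the libraries of a group biological replicates, and the p-values measure the spread between them.

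Each library held between 1340209 and 1682235 reads of listed genes, and these 10 transcripts were read from 0 to 74 reads in a library. The 8 muscle fibre markers were present in every group and summed to normalised counts of 245816 to 274635 for control, 196603 to 215988 for ORX and 225704 to 238450 for ORX+DHT libraries. The ORX libraries, in which Myog, Runx1, Gadd45a and Ncam1 had their highest group means, were thus lowest in this sum. The part of this in the values of these genes was not tested. Of the 8 markers, 3 were called higher by limma in ORX+DHT against ORX (Acta1, Myh1 and Des). In that comparison Myh4, Myh2 and Ryr1 were lower, with log2 fold changes of -0.08, -0.15 and -0.08 that were not called. In ORX against control 6 of 8 markers were lower and 0 were called, while Myh2 (0.20) and Ryr1 (0.04) were higher. Control replicate 1 stood apart from the other libraries, with a score of 47.2 on a first principal component on which the other 8 libraries lay between -10.6 and -0.716. No member was called with or without it. In bulk muscle, fewer cells of a type and less RNA per cell cannot be told apart.

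None of the 10 genes passed the test in any of the 3 comparisons. The threshold was an adjusted p under 0.05 in limma's fit across all genes with a mean of at least 10 normalised counts (reads divided by a scaling factor of each library). For castration (ORX against control), 6 members were tested and 0 were called, beside 0.0579% of all genes tested. For androgen after castration (ORX+DHT against ORX), 6 were tested and 0 were called, beside 4.08%. For castrated mice given androgen against controls (ORX+DHT against control), 5 were tested and 0 were called, beside 0.0349%. Values given for 3 comparisons together follow this order. An unadjusted limma p under 0.05 was found for 2 of 6, 3 of 6 and 1 of 5 tested members, against 7.21%, 14.3% and 6.48% of all genes tested. On the recovered reads of the same genes, edgeR called 0 members, beside 0.0695%, 4.17% and 0.0465% of all genes, and DESeq2 called 0, beside 0.324%, 2.55% and 0.151%.

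Below that minimum were Chrnd, Chrng, Myog and Runx1 in every comparison, and Ncam1 in ORX+DHT against control. Their fold changes come from a limma fit with no filter, named as such, which called 0 members, beside 0.11%, 2.52% and 0.0217% of all genes. All values that follow are normalised counts on a scale shared by the 9 libraries, listed by replicate 1, 2 and 3. Unless another pseudocount is named, every limma fold change is the log2 difference of value + 1, which understates the change of low genes. Those of edgeR and DESeq2 come from the recovered reads.

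**Figure D1:**
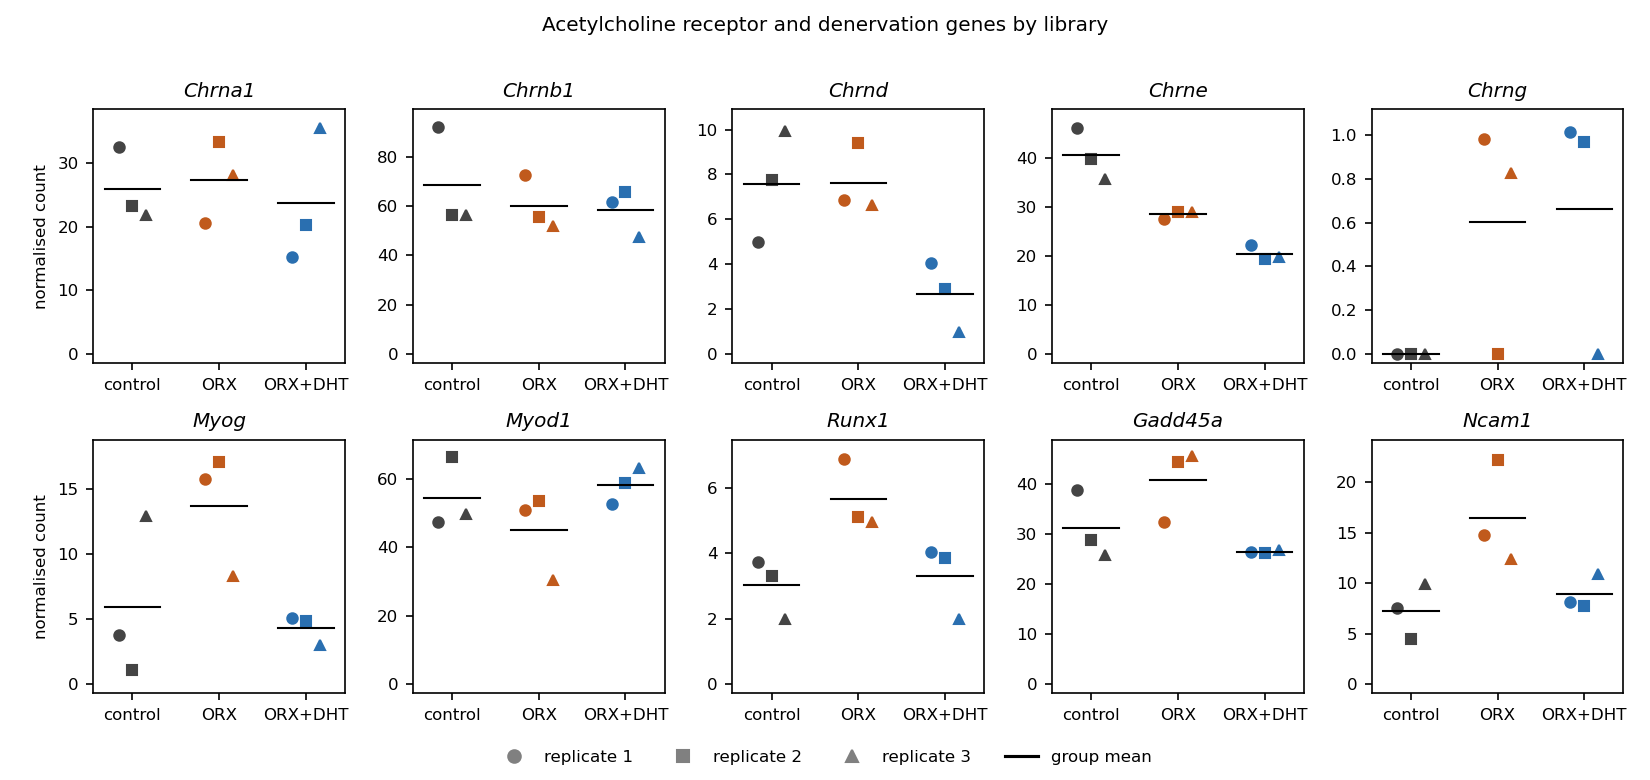
Normalised counts of the 10 genes (vertical axis, linear, a separate scale for each gene) in control, ORX and ORX+DHT libraries (horizontal axis). Each point is 1 library, its shape gives the replicate number and the line is the mean of 3. Chrne steps down from control to ORX to ORX+DHT with no overlap, while Myog, Runx1, Gadd45a and Ncam1 have their highest group mean in ORX.

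The epsilon subunit showed the most ordered pattern of the receptor genes. Chrne (ENSMUSG00000014609, GRCm38 chr11:70614883-70619216, minus strand) is the subunit that marks the adult receptor. It stood at 46.2, 39.8 and 35.8 normalised counts in control, at 27.5, 29.0 and 29.0 in ORX and at 22.3, 19.3 and 19.8 in ORX+DHT libraries. Every control library lay above every ORX library, and every ORX library above every ORX+DHT library. Group means were 40.6 ± 5.27, 28.5 ± 0.860 and 20.5 ± 1.60 (SD, n = 3). The log2 fold change was -0.49 in ORX against control (95% interval -0.935 to -0.0457, limma adjusted p 0.675) and -0.46 in ORX+DHT against ORX (-0.902 to -0.0196, limma adjusted p 0.322). Against control, ORX+DHT gave -0.95 (-1.42 to -0.479), and the limma adjusted p was 0.379 with an unadjusted p of 0.000963, the 21st smallest of 8595 genes. None of these differences passed the test.

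Chrna1 (ENSMUSG00000027107, chr2:73563215-73580338, minus strand), for the subunit that carries most of the acetylcholine binding site, varied within groups more than between them. Its values were 32.5, 23.2 and 21.8 in control, 20.6, 33.3 and 28.1 in ORX and 15.2, 20.3 and 35.6 in ORX+DHT libraries. The 3 groups overlapped throughout, and the lowest and highest of the 9 values were both ORX+DHT libraries. The log2 fold changes were 0.07 (95% interval -0.496 to 0.641), -0.26 (-0.852 to 0.335) and -0.18 (-0.877 to 0.508) in the 3 comparisons (limma adjusted p 0.963, 0.746 and 0.895).

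Chrnb1 (ENSMUSG00000041189, chr11:69784036-69795943, minus strand) encodes the beta subunit, a structural part of the receptor at every age. It stood at 92.4, 56.4 and 56.6 in control, 72.6, 55.4 and 52.1 in ORX and 61.8, 65.7 and 47.4 in ORX+DHT libraries. The groups overlapped, and the control mean of 68.5 ± 20.7 rested on replicate 1. In ORX against control the log2 fold change was -0.16 (95% interval -0.669 to 0.344, limma adjusted p 0.885), and without control replicate 1 it was 0.07. The other differences were -0.04 (-0.402 to 0.322) in ORX+DHT against ORX and -0.20 (-0.706 to 0.303) in ORX+DHT against control (limma adjusted p 0.953 and 0.852).

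Chrnd (ENSMUSG00000026251, chr1:87190607-87200070, plus strand), for the delta subunit, was read from 21, 26 and 8 reads in all in control, ORX and ORX+DHT muscle. Its normalised counts were 4.99, 7.74 and 9.93 in control, 6.87, 9.38 and 6.62 in ORX, and 4.05, 2.90 and 0.988 in ORX+DHT libraries. The ORX+DHT libraries lay below all the others, and the other groups overlapped. The exact 95% Poisson intervals of the summed reads, which cover counting error only, were 17.0 to 38.1 for ORX and 3.45 to 15.8 for ORX+DHT. In the fit with no filter the log2 fold change was -1.35 (standard error 0.47, limma adjusted p 0.187) in ORX+DHT against ORX, -1.29 (standard error 0.48, limma adjusted p 0.807) in ORX+DHT against control and 0.04 (standard error 0.41, limma adjusted p 0.990) in ORX against control.

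The gamma subunit, which is used in fetal and denervated muscle, was at the limit of detection. Chrng (ENSMUSG00000026253, chr1:87204657-87212694, plus strand) had 0, 2 and 2 reads in all in control, ORX and ORX+DHT muscle, so no fold change is given. Of the reads of gamma and epsilon together, gamma made up 0 of 109 in control muscle (exact Clopper-Pearson 95% interval 0% to 3.33%), and the limit of 3 reads that a count of 0 allows is 2.75%. The share was 2 of 99 in ORX (2.02%, interval 0.246% to 7.11%) and 2 of 64 in ORX+DHT muscle (3.13%, 0.381% to 10.8%). The intervals overlap, so a difference in the share of gamma was not detectable at this depth.

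Compared per kilobase of annotated exon, which allows levels of different genes to be set side by side, the subunits were unequal. Averaged over the 9 libraries, Chrnb1 stood at 24.6 and Chrne at 17.7 normalised counts per kb, Chrna1 at 5.84, Chrnd at 1.81 and Chrng at 0.101. The ranges of Chrne (11.4 to 27.3) and Chrna1 (3.47 to 8.11) did not meet, and neither did those of Chrna1 and Chrnd (0.301 to 3.02), while those of Chrnb1 and Chrne overlapped. Lengths pool the exons of all annotated transcripts, so a gene with unused exons is understated. Within a library the ratio of Chrne to Chrna1 per kb was 3.69 to 4.45 for control, 2.26 to 3.46 for ORX and 1.44 to 3.81 for ORX+DHT muscle. The control libraries lay above the ORX libraries, while the ORX+DHT libraries overlapped both.

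**Figure D2:**
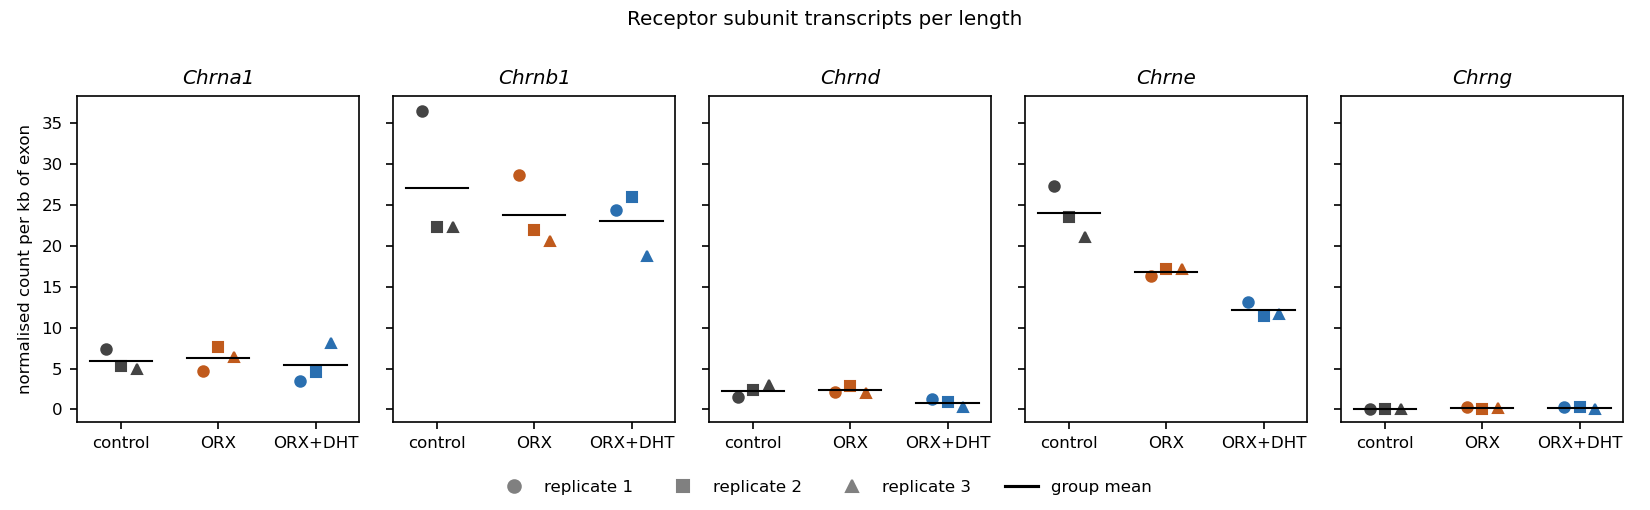
Normalised counts per kb of annotated exon for the 5 receptor subunits (vertical axis, linear, 1 scale for all) by group (horizontal axis). Points are libraries, shapes are replicate numbers and lines are means of 3. Chrnb1 and Chrne stand highest, and Chrng lies at or near 0 in every library.

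The members matched RefSeq promoter windows (build GRCm38.p6) for 7 of 10 genes. The 250 bases before the start were searched on both strands for CAGCTG, an E-box bound by the MyoD family, for CCGGAA, the core of the N-box linked to synaptic transcription, and for the palindromic androgen response element. Of 32851 windows of this length, 13.0% held the first, 12.0% the second and 0.387% the third. Below are Chrna1, as 1 of the subunit genes (with Chrng) that hold 2 E-boxes, Chrne and Gadd45a, as the members past the minimum with the smallest p in the comparisons with ORX+DHT, and Myog, as the member with the largest fold difference. Matches are in capitals.
Chrna1, chr2:73580339-73580588, minus strand: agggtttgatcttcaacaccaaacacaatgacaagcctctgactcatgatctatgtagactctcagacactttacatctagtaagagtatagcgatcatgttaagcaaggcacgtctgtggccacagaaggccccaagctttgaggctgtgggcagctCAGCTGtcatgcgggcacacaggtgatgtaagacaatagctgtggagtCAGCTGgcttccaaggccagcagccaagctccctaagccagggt
Chrne, chr11:70619195-70619444, minus strand: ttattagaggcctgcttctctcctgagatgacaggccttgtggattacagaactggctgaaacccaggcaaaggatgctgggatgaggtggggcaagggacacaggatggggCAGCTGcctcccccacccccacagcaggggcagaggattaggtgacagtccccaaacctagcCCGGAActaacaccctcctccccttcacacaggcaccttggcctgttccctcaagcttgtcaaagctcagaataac
Gadd45a, chr6:67037408-67037657, minus strand: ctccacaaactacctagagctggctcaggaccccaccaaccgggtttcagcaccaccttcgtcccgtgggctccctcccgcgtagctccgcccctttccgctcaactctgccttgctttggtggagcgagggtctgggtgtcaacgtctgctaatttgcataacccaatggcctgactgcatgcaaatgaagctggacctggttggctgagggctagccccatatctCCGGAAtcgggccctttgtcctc
Myog, chr1:134289754-134290003, plus strand: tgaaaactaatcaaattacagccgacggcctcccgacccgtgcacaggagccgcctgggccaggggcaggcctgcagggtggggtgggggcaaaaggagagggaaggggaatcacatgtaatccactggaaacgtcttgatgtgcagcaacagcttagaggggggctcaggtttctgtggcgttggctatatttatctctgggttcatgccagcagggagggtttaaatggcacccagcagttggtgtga
The Chrna1 window held CAGCTG starting 92 and 44 bases before the start, the Chrne window CAGCTG at 138 and CCGGAA at 76 bases, and the Gadd45a window CCGGAA at 23 bases. No match overlapped another. The Myog window held none of the 3 motifs, and the androgen element was in none of the 8 windows of the 7 genes. A match is a description of the letters.

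Among the regulators, myogenin had the largest fold differences in the comparisons with ORX, at low depth. Myog (ENSMUSG00000026459, chr1:134289989-134292548, plus strand) stood at 3.75, 1.11 and 12.9 normalised counts in control, 15.7, 17.1 and 8.27 in ORX and 5.07, 4.83 and 2.96 in ORX+DHT libraries. Every ORX library lay above every ORX+DHT library, while control replicate 3 lay within the ORX range and the other controls below it. Summed reads were 17, 46 and 13, with exact 95% Poisson intervals of 9.90 to 27.2, 33.7 to 61.4 and 6.92 to 22.2. With no filter the log2 fold change in ORX+DHT against ORX was -1.45 (95% interval -2.29 to -0.603), or 0.366 times, and did not pass (limma adjusted p 0.0670).

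This was the result that depended on the test. In the fits with no filter, edgeR gave Myog a log2 fold change of -1.64 (adjusted p 0.00587) and robust limma the same -1.45 as above (adjusted p 0.0156), while DESeq2 gave -1.67 (adjusted p 0.269) and limma with all 9 libraries -1.44 (adjusted p 0.444). edgeR with no filter called 1 member here, Myog, beside 3.8% of all genes. In ORX against control the log2 fold change was 1.44 (95% interval 0.220 to 2.67, limma adjusted p 0.653), and it was 2.15 without control replicate 3 and 0.79 without control replicate 2. Against control, ORX+DHT gave 0.00 with a wide interval, -1.32 to 1.33 (limma adjusted p 0.999).

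Myod1 (ENSMUSG00000009471, chr7:46376474-46379099, plus strand), the relative of myogenin that is strongest in fast fibres, did not share this pattern. It stood at 47.4, 66.3 and 49.7 in control, 51.0, 53.7 and 30.6 in ORX and 52.7, 59.0 and 63.2 in ORX+DHT libraries. ORX replicate 3 was the lowest of the 9, and the groups overlapped. Without that library the log2 fold change given next for ORX against control would be -0.04 in place of -0.29, and that for ORX+DHT against ORX 0.15 in place of 0.40. The log2 fold change was -0.29 (95% interval -0.833 to 0.246) in ORX against control, 0.40 (-0.0148 to 0.816) in ORX+DHT against ORX and 0.11 (-0.317 to 0.533) in ORX+DHT against control (limma adjusted p 0.806, 0.368 and 0.899). The within-library ratio of Myog to Myod1 per kb was 0.336 to 0.395 for ORX and 0.0584 to 0.120 for ORX+DHT muscle, with 0.0207 to 0.324 in control. The ORX libraries lay above all the others in this ratio, narrowly, with ORX replicate 3 at 0.336 and control replicate 3 at 0.324. That order rested on the low Myod1 value of ORX replicate 3 (30.6). Its Myog value (8.27) was below that of control replicate 3 (12.9).

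Gadd45a (ENSMUSG00000036390, chr6:67035096-67037457, minus strand), which promotes atrophy when induced in denervated fibres, had the smallest p of the members tested in ORX+DHT against ORX. It stood at 38.7, 28.7 and 25.8 in control, 32.4, 44.4 and 45.5 in ORX and 26.3, 26.1 and 26.7 in ORX+DHT libraries. All ORX libraries lay above all ORX+DHT libraries, which were nearly equal to each other, and the controls overlapped both. The overlap of control with ORX rested on control replicate 1. Without that library the log2 fold change in ORX against control was 0.55 (limma adjusted p 0.372). The log2 fold change was -0.59 (standard error 0.20, limma adjusted p 0.119) in ORX+DHT against ORX, 0.38 (standard error 0.23, limma adjusted p 0.746) in ORX against control and -0.21 (standard error 0.23, limma adjusted p 0.842) in ORX+DHT against control. Its exons overlap those of an annotated transcript on the other strand, and how strand was used in counting is not given in the sources used here.

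Runx1 (ENSMUSG00000022952, chr16:92601466-92826149, minus strand), whose product limits wasting in denervated muscle, was read from 8, 19 and 10 reads in all. Its normalised counts were 3.75, 3.32 and 1.99 in control, 6.87, 5.12 and 4.96 in ORX and 4.05, 3.87 and 1.98 in ORX+DHT libraries. The ORX libraries lay above all the others, and control and ORX+DHT libraries overlapped. The difference with no filter was 0.74 on the log2 scale (standard error 0.44, limma adjusted p 0.783) in ORX against control and -0.66 (standard error 0.45, limma adjusted p 0.634) in ORX+DHT against ORX. Against control, ORX+DHT gave 0.09 (standard error 0.45, limma adjusted p 0.982).

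Ncam1 (ENSMUSG00000039542, chr9:49502136-49798925, minus strand), an adhesion molecule kept to the synapse in innervated fibres and also made by Schwann cells and satellite cells, stood at 7.49, 4.42 and 9.93 in control, 14.7, 22.2 and 12.4 in ORX and 8.11, 7.73 and 10.9 in ORX+DHT libraries. Here too the ORX libraries lay above all the others. The log2 fold change was 1.09 (95% interval 0.280 to 1.90, limma adjusted p 0.653) in ORX against control and -0.79 (-1.46 to -0.132, limma adjusted p 0.223) in ORX+DHT against ORX. With no filter it was 0.30 (-0.562 to 1.17, limma adjusted p 0.886) in ORX+DHT against control. Runx1 and Ncam1 also share exon bases with annotated antisense transcripts.

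Seen over the 10 genes, the groups did not overlap in ORX against control for 3, Runx1 and Ncam1 higher in ORX and Chrne lower, against 12.1% of all listed genes, 5.89% higher and 6.22% lower. With androgen added to castration they did not overlap for 6, Chrnd, Chrne, Myog, Runx1, Gadd45a and Ncam1, all lower in ORX+DHT, against 15.4% of genes in either direction and 7.48% in that one. Between ORX+DHT and control they did not overlap for 2, Chrnd and Chrne, both lower in ORX+DHT, against 11.8% in either direction and 6.08% in that one. The median log2 fold change over the members past the minimum was -0.05, -0.36 and -0.20 in the 3 comparisons, beside -0.01, 0.01 and -0.01 over all genes tested. In the first 2 these members include Ncam1, which passed the minimum only through ORX. The first 2 comparisons share the ORX libraries, so a value high in ORX moves both.

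**Figure D3:**
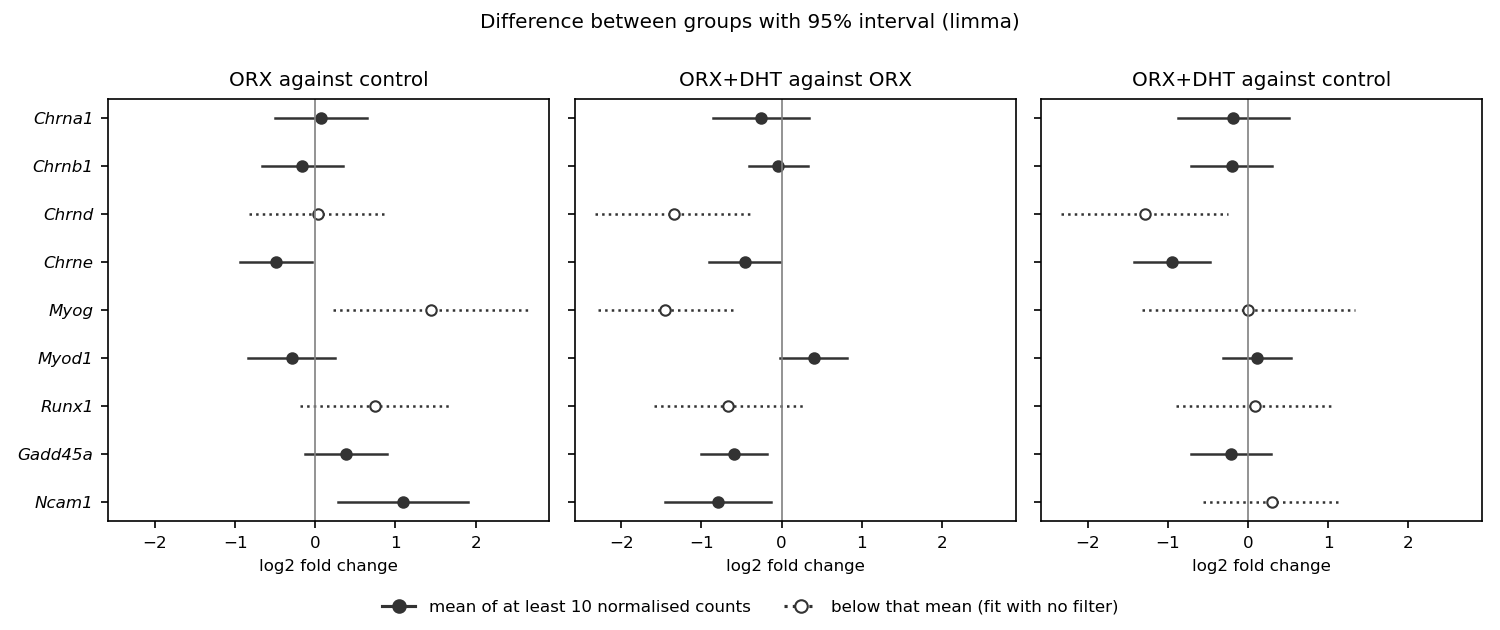
The log2 fold change (horizontal axis, of value + 1) of 9 genes (vertical axis) in the 3 comparisons, with its 95% interval from limma. Filled points passed the minimum mean of 10 normalised counts and open points come from the fit with no filter; Chrng is left out because it had at most 2 reads in a group. Intervals that exclude 0 are unadjusted, and no adjusted p was under 0.05.

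Genes for proteins that cluster the receptor or act beside it were also measured. Rapsn, for the scaffold rapsyn, had group means of 57.7 ± 7.96, 45.5 ± 6.27 and 45.4 ± 4.47 normalised counts in control, ORX and ORX+DHT muscle, and a log2 fold change of 0.00 in ORX+DHT against ORX (limma adjusted p 0.997). Dok7, for the adaptor that activates the kinase MuSK, stood at 38.7 ± 5.43, 29.3 ± 8.81 and 44.5 ± 1.92, with 0.63 in ORX+DHT against ORX (limma adjusted p 0.130). Ache, for acetylcholinesterase, stood at 90.1 ± 21.2, 77.8 ± 2.75 and 79.4 ± 12.4, with 0.02 (limma adjusted p 0.974). None of these passed. Musk, for the kinase itself, was below the minimum and stood at 1.25, 4.42 and 0 in control, 2.94, 3.41 and 4.96 in ORX and 10.1, 10.6 and 5.93 in ORX+DHT libraries. For Musk, a gene that also increases on denervation, it was the ORX+DHT libraries that lay above all the others.

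A list of 16 further genes that respond to denervation or relay it gave 0 calls by limma in each comparison, from 10, 11 and 10 tested genes. Of these, 3, 4 and 1 had an unadjusted limma p under 0.05, beside 7.21%, 14.3% and 6.48% of all genes tested. Its median log2 fold change was 0.26, -0.06 and 0.19, beside -0.01, 0.01 and -0.01 over all genes tested. The genes with an unadjusted limma p under 0.05 in ORX against control were Hdac4, Tnfrsf12a (log2 fold change -1.71) and Fbxo32 (0.37). In ORX+DHT against ORX they were Trim63 (0.40, and -0.29 in ORX against control), Tnfrsf12a (0.94), Fbxo32 (0.28) and Ankrd1 (-0.76). In ORX+DHT against control it was Fbxo32 (0.65). Tnfrsf12a stood at 126, 37.6 and 25.8 in control libraries. Hdac4, for a histone deacetylase that links activity to myogenin, stood at 55.9 ± 9.26, 81.7 ± 14.0 and 69.1 ± 19.3 normalised counts, with a log2 fold change of 0.54 in ORX against control (limma adjusted p 0.669) and -0.26 in ORX+DHT against ORX (limma adjusted p 0.579). Sln, for sarcolipin, was below the minimum, with 1.25, 3.32 and 0 in control, 2.94, 2.56 and 3.31 in ORX and 1.01, 0.967 and 1.98 in ORX+DHT libraries. A list of 16 myogenic factors and their partners also gave 0 calls, from 12 tested genes in each comparison (limma; 1, 1 and 0 had an unadjusted p under 0.05).

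Some summed markers of other cells in the muscle differed in level between the groups. The 4 fibroblast markers summed to 1325 to 2654 normalised counts in control, 2784 to 3739 for ORX and 1671 to 2365 for ORX+DHT libraries, and the 4 tendon markers to 108 to 147, 184 to 411 and 103 to 150. In both sums the ORX libraries lay above all the others. Few genes carried these sums. They were Col1a1 (group means 846, 1682 and 750 in control, ORX and ORX+DHT), Col3a1 (745, 1222 and 877) and Fmod (107, 263 and 102). Mkx, at a low level, was also highest in ORX (1.12, 2.66 and 1.32). Pdgfra (20.3, 19.2 and 17.8) and Scx (6.63, 5.50 and 3.94) were not, and for Dcn and Tnmd the groups overlapped. Between ORX+DHT and ORX, 1 of 4 tested fibroblast markers (Col1a1) and 1 of 2 tested tendon markers (Fmod) were called lower by limma. The 6 satellite cell and myoblast markers summed to 34.8 to 54.9, 37.5 to 52.1 and 40.5 to 57.0, with the groups overlapping, and all 6 had reads in each group. Most of this sum was Cdh15, with group means of 33.0, 31.2 and 35.9. Pax7 stood at 4.99, 6.63 and 4.97 in control, 7.85, 7.68 and 10.8 in ORX and 7.09, 10.6 and 5.93 in ORX+DHT libraries. For Pax7 every ORX library lay above every control library, and the ORX+DHT libraries overlapped both. Myf5, Calcr, Mymk and Chrdl2 had lower group means than Pax7. The 4 macrophage and leukocyte markers, cells that also make Runx1, summed to 15.5 to 22.8, 20.5 to 30.4 and 23.2 to 28.7, with every ORX+DHT library above every control library and the ORX libraries overlapping both. Csf1r carried this order, with group means of 10.1, 13.8 and 17.5. Adgre1 (2.97, 5.82 and 2.96), Cd68 (3.55, 4.25 and 2.30) and Ptprc (2.81, 2.70 and 2.64) were not higher in ORX+DHT than in control. The 4 endothelial markers summed to 601 to 810, 682 to 837 and 844 to 901, and the ORX+DHT libraries lay above all the others, with 0 of 4 called by limma in any comparison (0, 1 and 1 had an unadjusted p under 0.05). The part of these cells in the values of Myog, Ncam1, Gadd45a and Runx1 was not tested.

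**Figure D4:**
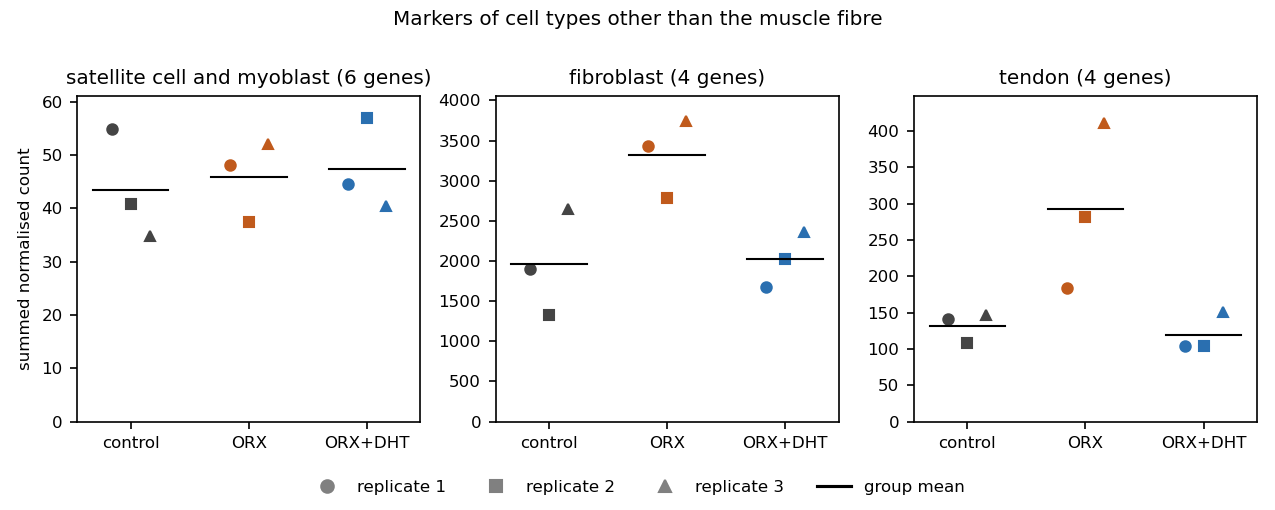
Summed normalised counts of markers of satellite cells, fibroblasts and tendon (vertical axis, linear from 0, a separate scale for each) by group (horizontal axis). Points are libraries, shapes are replicate numbers and lines are means of 3. ORX libraries lie above all others for the sums of fibroblast and tendon markers, which few genes carry. The groups overlap for the sum of satellite cell markers, most of which is Cdh15.

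Likeness of pattern was measured as the root-mean-square difference of centred log2 values over the 9 libraries, among 3793 other genes with a mean of at least 50. The genes closest to Myog were Col12a1, Postn and Col5a2, all of the extracellular matrix, at 0.50, 0.50 and 0.54 log2 units, where the spread of Myog itself was 0.98. Col12a1 had group means of 50.3, 161 and 29.7 in control, ORX and ORX+DHT muscle. The genes closest to Gadd45a were Arl6ip5, Tpbgl and Fam189a2, at 0.11, 0.11 and 0.13, where the spread of Gadd45a was 0.31. Those closest to Chrna1 were Rtraf, Ufd1 and Ppm1g, at 0.19, 0.21 and 0.22 against a spread of 0.37. These are descriptions over 9 libraries that share their groups.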

How the data were processed

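PolyA RNA of 9 libraries was sequenced with a directional kit, per the labels' protocols. The submitters' processing notes name Trim Galore 0.6.7, HISAT2 2.2.1, featureCounts 2.0.1, DESeq2 1.36.0 and GRCm38. The annotation release is not given in the sources used here. The authors deposited 2 tables of normalised counts of protein-coding genes (a signal: reads divided by a factor of the library), control with ORX (14596 genes) and ORX with ORX+DHT (14675). Within 1e-06, 100% of values were whole multiples of 1 step per column, which gave back the reads. The step of control replicate 3 (0.992) is near 1 and could be taken for rounding, but it equals the median-of-ratios step of that library (0.992). Sham columns were matched to control by replicate number, and 0 columns were left unmapped. No pair of replicates was close enough to be 1 library (chi-square per degree of freedom at least 1.73), and none were merged.

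Each comparison was fitted on its own table with limma 3.58.1 (R 4.3.3; trend, log2(value + 1), mean of at least 10, Benjamini-Hochberg over all genes tested). ORX+DHT against control used the 14300 shared genes, rescaled by median-of-ratios factors. Places and exon lengths come from GENCODE M21 (GRCm38). edgeR 4.0.16 and DESeq2 1.42.0 on recovered reads were alternatives. limma was tested on simulated data. The members and lists were chosen with earlier results of these data known. All 10 members were named, with called genes of 2 context lists (denervation response and myogenic factors), 6 list genes in any case (Musk, Rapsn, Ache, Dok7, Hdac4 and Sln) and the 3 genes most like Chrna1, Myog and Gadd45a. Fits with no filter for members below the minimum were added after the data were seen. Trim63, Tnfrsf12a, Fbxo32, Ankrd1 and single markers of cell types were also named after that. A list of synaptic genes and a list of Schwann cell markers are not reported here as lists.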

Additional observations from a re-analysis of the deposited data

How the results depend on the processing

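Counts of called members stayed at 0 in all 19 alternatives for ORX against control and for ORX+DHT against control. In ORX+DHT against ORX they stayed at 0 in 18 of 19, while edgeR without the minimum mean, chosen after seeing the data, called 1, Myog. Apart from the fits with no filter, these alternatives kept a minimum mean, so a member below it could not be called in them. Robust limma with no filter, which also put Myog under the threshold (adjusted p 0.0156), is not among the 19. With the replicate number as a block, 0 members were called in each comparison. The numbers mark no shared animal or day in the labels: deviations of same-numbered libraries correlated at -0.168 to 0.0614, 0.0633 to 0.153 and -0.0960 to -0.00347 in the 3 comparisons, and each ORX+DHT library correlated best with the ORX library of its own number.

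Of 460 alternative values for the members, 434 kept direction and side of the threshold, and 24 changed sign, all for differences that did not pass. With 1 library left out, log2 fold changes ran in ORX against control from -0.078 to 0.255 for Chrna1, from -0.305 to 0.072 for Chrnb1 and from -0.195 to 0.236 for Chrnd. In ORX+DHT against ORX they ran from -0.584 to 0.00308 for Chrna1 and from -0.134 to 0.103 for Chrnb1. In ORX+DHT against control they ran from -0.510 to 0.0772 for Chrna1, -0.320 to 0.0316 for Chrnb1, -0.645 to 0.717 for Myog and -0.114 to 0.332 for Runx1. Myod1 kept its direction, from -0.438 to -0.0412 in ORX against control, 0.148 to 0.546 in ORX+DHT against ORX and 0.0180 to 0.256 in ORX+DHT against control. Chrnd in ORX against control was -0.069 after quantile normalisation, -0.0081 with edgeR and -0.0017 with DESeq2. Myog in ORX+DHT against control was -0.091 with a pseudocount of 10, -0.012 after quantile normalisation, -0.525 with edgeR and -0.495 with DESeq2. The cause was not tested. Depth limits Chrng, Runx1, Chrnd, Musk and Sln most, at 0 to 26 reads in a group for the first 3.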
